A study of Mus musculus with 9 samples.

Results

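Neutrophils carry a small set of surface receptors and a larger set of granule proteins, and 10 genes of both kinds were followed in mouse ear skin. The genes were chosen by name from the 25124 genes listed, whatever their level, and all 10 were found. They comprise 5 receptor genes (Csf3r, Fpr1, Fpr2, Trem1 and Trem3), 3 granule genes (Ngp, Ltf and Mpo), the secreted factor gene Retnlg, and Lrg1. These genes and the lists set beside them were chosen with earlier results of these data known. Counts of listed genes beside the share of all genes are therefore a description, with no independent test. Whole ear skin came from C57BL/6 mice whose ears had been swabbed with Staphylococcus epidermidis strain LM087, a skin commensal, on alternate days, and the tissue was collected on day 8. In 4 libraries the mice had also been given anti-CTLA-4, a checkpoint inhibitor antibody, and in 5 libraries they had the bacterium alone. Both groups therefore carried the bacterium, and skin without it, or with the antibody alone, was not analysed here. The labels give neither the age or sex of the mice, nor the antibody dose, nor whether the mice without it were given another antibody. They number the libraries without saying that each is a separate animal, so p-values measure the spread between these libraries, which may be partly technical.

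Neutrophils are made in bone marrow, and their genes are switched on in an order. Promyelocytes and myelocytes transcribe the genes of primary and secondary granule proteins, and the cells that leave the marrow have largely ceased to do so while still holding the finished proteins. Receptors for growth factors, bacterial peptides and inflammatory ligands are transcribed in the mature cell. Reads from granule genes in a tissue are thus a textbook mark of precursors. Reads from receptor genes alone do not tell the stage or kind of cell, since monocytes and macrophages can transcribe these receptors too.

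All 5 receptor genes were higher in anti-CTLA-4 skin, with no overlap between the groups, while the 3 granule genes overlapped in both groups and were near the limit of detection. Summed over the 5 receptor genes, the libraries held 15.2, 12.2, 16.8 and 11.9 TPM (a level scaled to gene length and library total) with anti-CTLA-4, against 1.64, 3.24, 5.60, 2.04 and 5.85 TPM with the bacterium alone. The lowest anti-CTLA-4 library thus stood above the highest library without the antibody. Over Ngp, Ltf and Mpo, the sums were 0.949, 1.84, 1.76 and 0.867 TPM with anti-CTLA-4, against 1.37, 0.834, 0.834, 1.18 and 0.854 TPM with the bacterium alone. Among all 22100 genes above 0 TPM in any library, 6.24% were higher in every anti-CTLA-4 library than in every library of the bacterium alone, and 5.01% lower. In whole tissue, more cells of a type and more RNA per cell cannot be told apart.

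In this table TPM was scaled to the whole span of the gene on the chromosome, introns included, so that multiplying it back by span gave whole read numbers (within 0.15 reads for between 99.8% and 99.995% of the genes checked in each library, against 30.5% to 31.1% with the spans shuffled). The reads recovered this way came to between 10213772 and 13868683 per library, and for the 10 genes they lay within 0.020 reads of a whole number. Larger common multiples cannot be told from these smallest numbers, and intervals on them cover counting error alone. As a check of tissue, the keratin genes Krt5 and Krt14 lay between 2631 and 3983 TPM in all libraries and the collagen gene Col1a1 between 482 and 771 TPM. Between 30.6% and 40.2% of the listed TPM fell on Rn45s and Mir6236, which derive from ribosomal RNA.

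The promoters of the genes that moved together are printed beside one that did not, so that their letters can be compared. RefSeq (GRCm38.p6, the assembly of mm10) gave a start site for 9 of the 10 genes, and the 250 bases before it are shown 5′ to 3′ for 4 receptor genes and for Ngp. They lie at chr4:126024409-126024658 on the plus strand, chr17:17883940-17884189 on the minus strand, chr17:17887574-17887823 and chr17:48232489-48232738 on the plus strand, and chr9:110419558-110419807 on the plus strand. Capitals mark GAGGAA, the core of the site bound by the myeloid factor PU.1, and TTGCNNAA, a site form of the C/EBP factors, each searched on both strands with no overlap between them here. The letters of both motifs were chosen with these promoters in view.
Csf3r: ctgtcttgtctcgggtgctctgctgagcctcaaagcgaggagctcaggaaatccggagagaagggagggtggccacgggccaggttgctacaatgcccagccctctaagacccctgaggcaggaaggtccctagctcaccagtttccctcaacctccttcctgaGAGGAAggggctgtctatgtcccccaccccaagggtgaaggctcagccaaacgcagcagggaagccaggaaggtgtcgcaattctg
Fpr1: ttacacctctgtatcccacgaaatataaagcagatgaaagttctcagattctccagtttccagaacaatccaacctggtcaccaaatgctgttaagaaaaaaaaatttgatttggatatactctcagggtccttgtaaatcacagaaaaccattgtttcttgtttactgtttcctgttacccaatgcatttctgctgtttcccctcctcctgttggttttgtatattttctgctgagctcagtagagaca
Fpr2: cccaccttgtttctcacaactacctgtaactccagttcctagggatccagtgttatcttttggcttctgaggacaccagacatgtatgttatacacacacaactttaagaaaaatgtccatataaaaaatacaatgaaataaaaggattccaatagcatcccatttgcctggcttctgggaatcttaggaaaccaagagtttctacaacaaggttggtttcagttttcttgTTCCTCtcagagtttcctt
Trem1: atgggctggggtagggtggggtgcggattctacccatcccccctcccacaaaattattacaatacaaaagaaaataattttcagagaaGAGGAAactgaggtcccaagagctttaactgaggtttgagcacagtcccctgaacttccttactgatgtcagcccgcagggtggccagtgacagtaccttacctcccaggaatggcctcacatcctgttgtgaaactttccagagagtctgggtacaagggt
Ngp: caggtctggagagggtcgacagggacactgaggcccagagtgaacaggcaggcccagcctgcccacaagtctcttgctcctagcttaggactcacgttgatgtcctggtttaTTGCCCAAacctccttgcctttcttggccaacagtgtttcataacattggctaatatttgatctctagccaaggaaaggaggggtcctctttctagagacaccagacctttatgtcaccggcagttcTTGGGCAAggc
GAGGAA stood in the promoters of Csf3r, Fpr2, Trem1, Ltf and Mpo, 5 of the 9, against 23.3% of 32851 RefSeq promoters of the same length. TTGCNNAA stood in those of Ngp, Ltf and Retnlg, 3 of the 9, against 9.56% of all. Fpr1 held neither within these 250 bases. The start sites of Fpr1 and Fpr2 face away from each other on chromosome 17 and lie 3885 bases apart, and Trem3 begins 805 bases after the end of Trem1. No gene listed in the table overlaps the span of any of the 10.

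**Figure D1:**
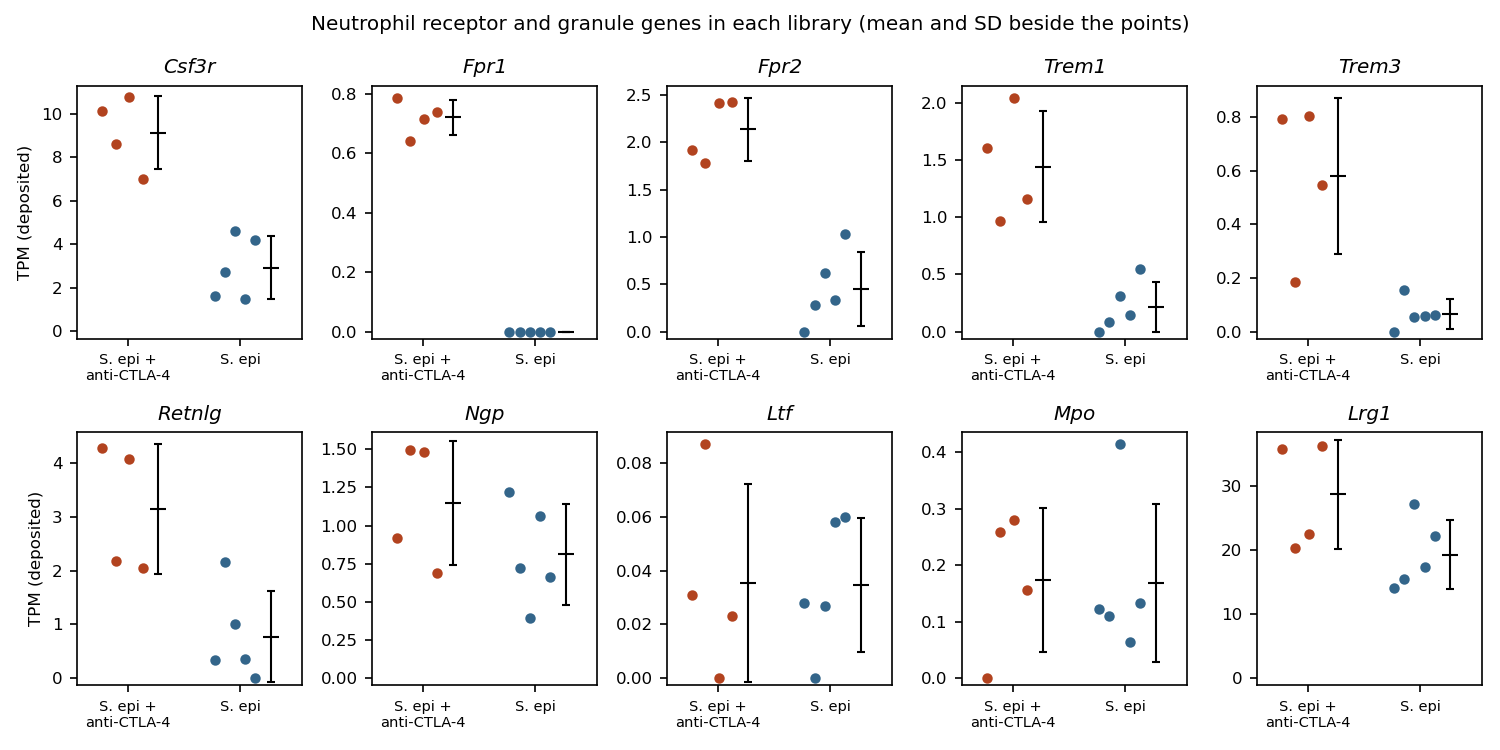
TPM (vertical axis, one scale per gene) of the 10 genes in each library, with 4 anti-CTLA-4 libraries (red) left of 5 libraries of the bacterium alone (blue) and the mean and SD beside the points. The 5 receptor genes of the upper row do not overlap between the groups, while Retnlg, Ngp, Ltf, Mpo and Lrg1 do.

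Csf3r encodes the receptor for granulocyte colony-stimulating factor, which drives the output and survival of neutrophils. It had 10.1, 8.59, 10.8 and 6.997 TPM in anti-CTLA-4 skin, against 1.64, 2.71, 4.61, 1.504 and 4.20 TPM with the bacterium alone. All 4 libraries with the antibody stood above all 5 without it. These values rest on 279, 255, 369 and 258 reads with anti-CTLA-4, against 51, 95, 149, 45 and 121 reads with the bacterium alone, the deepest coverage of the 5 receptor genes. The log2 fold change of TPM + 1 was 1.43 ± 0.26 (SE), and limma, a linear model fitted over all genes, gave a Benjamini-Hochberg adjusted p of 0.00931. Of all 15704 genes that reached 1 TPM in at least 4 libraries, 7.16% were called higher and 4.48% lower by this test.

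Fpr1 and Fpr2 encode formyl peptide receptors, which steer neutrophils towards peptides shed by bacteria. Fpr1 had 0.787, 0.642, 0.715 and 0.738 TPM in anti-CTLA-4 skin and was listed at 0 in all 5 libraries of the bacterium alone. This corresponded to 8, 7, 9 and 10 reads with the antibody and 0 reads in each library without it. Scaled to the reads outside ribosomal RNA, this was 14.3 times a floor of 3 reads over the whole group without the antibody. By the lower limit of an exact 95% counting interval, Fpr1 was at least 11.003-fold higher with anti-CTLA-4. The 4 libraries with the antibody lay close together, with a mean of 0.721 ± 0.0603 TPM (SD, n = 4).

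Fpr2 had 1.92, 1.79, 2.42 and 2.43 TPM with anti-CTLA-4, against 0, 0.284, 0.616, 0.332 and 1.04 TPM with the bacterium alone. Its groups did not overlap, and 1 library without the antibody held no read of it. The log2 fold change of TPM + 1 was 1.15 ± 0.19 (SE), called higher by limma (adjusted p = 0.00638). Fpr2 reached the required 1 TPM in 4 libraries only through the anti-CTLA-4 group, which favoured a call, and a fit without that level filter called it too (limma adjusted p = 0.0116). Mouse Fpr2 has close relatives in a gene cluster, and with no account of how reads common to them were handled, its level is less certain than that of Csf3r.

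Trem1 encodes an activating receptor that amplifies inflammatory signals in neutrophils and monocytes, and Trem3 a related activating receptor of mouse myeloid cells. Trem1 had 1.61, 0.965, 2.05 and 1.17 TPM with anti-CTLA-4, against 0, 0.0820, 0.310, 0.144 and 0.547 TPM with the bacterium alone. Trem3 had 0.793, 0.185, 0.801 and 0.545 TPM with anti-CTLA-4, against 0, 0.157, 0.0570, 0.0610 and 0.0630 TPM with the bacterium alone. The gap between the groups was wide for Trem1 and narrow for Trem3, where anti-CTLA-4 replicate 2 and replicate 2 of the bacterium alone rested on 3 reads each. Over each group, Trem1 had 130 reads with anti-CTLA-4 and 23 with the bacterium alone, and Trem3 had 41 reads with anti-CTLA-4 and 6 with the bacterium alone.

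Fpr1, Trem1 and Trem3 did not reach 1 TPM in 4 libraries, so they were tested in a fit over all 22100 genes above 0 TPM. In that limma fit, 4.48% of the genes were called higher and 2.42% lower. It called all 5 receptor genes higher and none of the other 5, or 5 of the 10. The adjusted p was 0.0186 for Csf3r, 0.0116 for Fpr2, 0.0107 for Trem1, 0.0297 for Trem3 and 8.68e-06 for Fpr1. Fpr1 was listed at 0 throughout 1 group, which then has no spread. In the 9 leave-one-out fits of this kind, 3 to 5 of the 10 genes were called, and Fpr1, Fpr2 and Trem1 each time. Trem3 was called in a single one of them, that without anti-CTLA-4 replicate 2, and its limma adjusted p reached 0.0725. Leaving out anti-CTLA-4 replicate 1 also ended the call of Csf3r, at a limma adjusted p of 0.0513, so that 3 genes remained. Each of the 10 genes was also compared by a two-sided exact permutation test on the 9 libraries, which has 126 arrangements. Each receptor gene gave p = 0.0159, the smallest this exact test allows, with higher values in 4 of 4 anti-CTLA-4 libraries and before any adjustment for the 10 tests.

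Retnlg encodes resistin-like gamma, a secreted protein of mature mouse neutrophils. Its values were 4.28, 2.17, 4.08 and 2.04 TPM with anti-CTLA-4, against 0.345, 2.15, 0.999, 0.359 and 0 TPM with the bacterium alone. Replicate 2 of the bacterium alone lay above the lowest library with the antibody, so the groups overlapped. Among genes that reached 1 TPM in at least 4 libraries, Retnlg was called higher by limma (log2 fold change 1.30 ± 0.33, SE; adjusted p = 0.0340), and it reached that level through the anti-CTLA-4 libraries, which favoured a call. It was not called in the fit over all 22100 genes (limma adjusted p = 0.0570) or in 6 of 9 leave-one-out fits, those without anti-CTLA-4 replicate 1, 2 or 3 or replicate 1, 4 or 5 of the bacterium alone (limma adjusted p of up to 0.0879). Since 1 TPM of this short gene is worth 2.95 reads on average, the comparison rests on 37 reads over the anti-CTLA-4 libraries and 12 over the others.

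Ngp encodes neutrophilic granule protein, a cathelicidin-related protein of secondary granules in mice. It had 0.918, 1.495, 1.48 and 0.688 TPM with anti-CTLA-4, against 1.22, 0.725, 0.393, 1.06 and 0.661 TPM with the bacterium alone. In reads these were 4, 7, 8 and 4 with the antibody, against 6, 4, 2, 5 and 3 without it. The groups overlapped, and the log2 fold change of 0.24 ± 0.17 (SE) was not called by limma (adjusted p = 0.412).

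Ltf encodes lactoferrin, the iron-binding protein of secondary granules, and lay at the limit of detection. It had 0.0310, 0.0870, 0 and 0.0230 TPM with anti-CTLA-4, against 0.0280, 0, 0.0270, 0.0580 and 0.0600 TPM with the bacterium alone. No library held more than 3 reads of it, and 1 library of each group held none. The exact two-sided permutation p was 0.968.

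Mpo encodes myeloperoxidase, the enzyme of primary granules that is transcribed in promyelocytes. It had 0, 0.258, 0.279 and 0.156 TPM with anti-CTLA-4, against 0.123, 0.109, 0.414, 0.0640 and 0.133 TPM with the bacterium alone. The highest value belonged to replicate 3 of the bacterium alone, with 7 reads, and the only library with no read was anti-CTLA-4 replicate 1. The exact two-sided permutation p was 0.921.

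The reads bound how far Ngp, Ltf and Mpo could have moved unseen. Pooled over libraries and scaled to the reads outside ribosomal RNA, the ratio of anti-CTLA-4 to the bacterium alone was 1.45 for Ngp, with an exact 95% interval for counting error of 0.762 to 2.78. It was 1.051 for Ltf (interval 0.254 to 4.13) and 1.08 for Mpo (interval 0.457 to 2.52). For the 3 together, 40 reads with anti-CTLA-4 stood against 40 with the bacterium alone, a ratio of 1.26 with an interval of 0.793 to 2.01. The 5 receptor genes together had 1450 reads with anti-CTLA-4 and 511 with the bacterium alone, a ratio of 3.58 with an interval of 3.23 to 3.97, and Csf3r gave most of those reads. The interval of Ngp, Ltf and Mpo together lay below those of Csf3r (2.85 to 3.55), Fpr2 (3.10 to 8.57), Trem1 (4.55 to 11.6) and Trem3 (3.64 to 24.8). By contrast with these 3, 12 further granule and precursor genes had 1552 reads with anti-CTLA-4 and 739 with the bacterium alone, a ratio of 2.65 with an interval of 2.42 to 2.89. Of those reads Lcn2 gave 1082 with anti-CTLA-4 and 467 with the bacterium alone, and Chil3 gave 220 with anti-CTLA-4 and 55 with the bacterium alone. A change of Ltf as large as that of Csf3r was not detectable at this depth. These intervals pool libraries and leave out the spread between them.

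**Figure D2:**
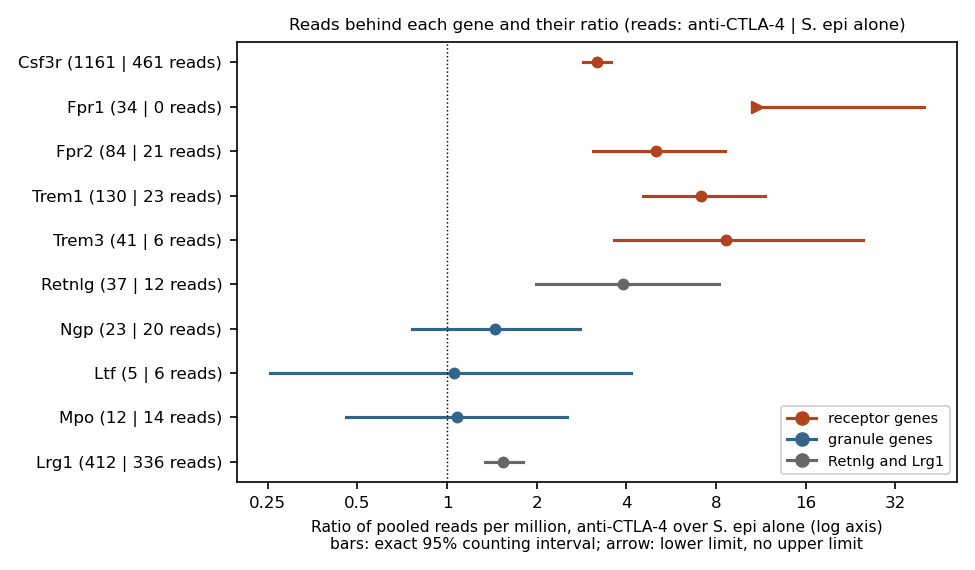
Ratio of pooled reads, scaled to reads outside ribosomal RNA, anti-CTLA-4 over the bacterium alone (horizontal log axis), for each of the 10 genes, with exact 95% counting intervals and the reads of both groups beside the name. For Fpr1, with 0 reads in the bacterium alone, the arrow starts at the lower limit of its interval, 11.003, which has no upper limit, and the intervals of the 3 granule genes span a ratio of 1.

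Lrg1 encodes leucine-rich alpha-2-glycoprotein, which neutrophils store in granules and which endothelium and epithelium also make. Its values were 35.7, 20.2, 22.5 and 36.2 TPM with anti-CTLA-4, against 14.1, 15.4, 27.2, 17.4 and 22.1 TPM with the bacterium alone. The groups overlapped, since replicate 3 of the bacterium alone lay above anti-CTLA-4 replicates 2 and 3. The log2 fold change was 0.55 ± 0.23 (SE), which limma did not call (adjusted p = 0.169), and the exact two-sided permutation p was 0.0952.

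Because TPM here divides by span, levels of different genes were compared as RPKM over exons, with recovered reads, GENCODE M21 exon lengths and library totals without ribosomal RNA. Whether the recovered reads fell on exons alone is not known. Any reads in introns would raise genes with long introns on this scale, so the order of genes is uncertain. With anti-CTLA-4, Csf3r stood first at 7.18 ± 1.23 and Lrg1 second at 6.51 ± 2.08 RPKM over exons (SD, n = 4), and their ranges overlapped. On the TPM scale Lrg1 stood first, at 28.6 against 9.12 TPM, as its span is 1.61 times its exons and that of Csf3r 5.63 times. Next came Fpr2 at 1.41 ± 0.187 and Retnlg at 1.401 ± 0.531 RPKM over exons, then Trem1 at 0.954 ± 0.289, Trem3 at 0.907 ± 0.448 and Fpr1 at 0.570 ± 0.0604. Neighbours in that order from Fpr2 to Ngp overlapped between libraries. Ngp followed at 0.419 ± 0.141, and Mpo at 0.0740 ± 0.0538 and Ltf at 0.0346 ± 0.0359 were lowest. A gap free of overlap between neighbours separated Lrg1 from Fpr2 and Ngp from Mpo. With the bacterium alone, Lrg1 at 4.22 ± 1.28 and Csf3r at 2.27 ± 1.16 also led on this scale (SD, n = 5), and Ngp at 0.287 ± 0.113 ranked above Trem1 at 0.142 ± 0.146, Trem3 at 0.102 ± 0.0848 and Fpr1.

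Other genes of mature neutrophils gave a mixed picture. Of 15 on a list of surface, enzyme and calcium-binding genes, 13 were tested, 7 rose, against 7.16% of all genes, none fell and 6 were not called, and the median log2 fold change of those tested was 0.94, against -0.014 over all genes. Without the level filter 7 of the 15 rose, against 4.48% of all genes and with a median of 0.84, but Cxcr2 was no longer among them and Cd177, a neutrophil surface protein, was. For 3 of the 13, the mean reached 1 TPM in anti-CTLA-4 skin and not with the bacterium alone, so the filter favoured them. The stefin family gene Stfa2l1 rose (log2 fold change 1.13, limma adjusted p = 0.00364, and 0.00610 without the level filter). It was among those 3, and had 55 reads with anti-CTLA-4 and 8 with the bacterium alone. Hdc, the enzyme that makes histamine, and the lectin receptor gene Clec4d rose by log2 fold changes of 0.94 and 1.19.

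Chosen after their values were seen, some genes used as neutrophil markers were set beside the 10 genes. Cxcr2, the receptor for neutrophil-attracting chemokines, had 23.2, 19.1, 21.3 and 28.0 TPM with anti-CTLA-4, against 14.3, 10.6, 14.8, 7.58 and 17.3 TPM with the bacterium alone (limma adjusted p = 0.0377). Its call ended in 6 of the 9 fits without 1 library: anti-CTLA-4 replicate 1, 2, 3 or 4, or replicate 1 or 2 of the bacterium alone (limma adjusted p of up to 0.0980). It was not called without the level filter either (limma adjusted p = 0.0622). S100a8, a calcium-binding alarmin that activated keratinocytes make too, had 1032 to 3364 TPM with anti-CTLA-4 and 63.6 to 1031 TPM with the bacterium alone. Its log2 fold change of 2.70 ± 0.89 (SE) was not called (limma adjusted p = 0.0821). S100a9 was not called either (limma adjusted p = 0.115). Mmp9 was called higher, at 9.74 ± 2.05 TPM with anti-CTLA-4 and 5.05 ± 1.34 TPM with the bacterium alone (SD, n = 4 and n = 5, limma adjusted p = 0.0148). It kept that call in each of the 9 fits without 1 library. Ly6g, the surface marker by which mouse neutrophils are usually gated, had 1 read in all anti-CTLA-4 libraries and 0 in the others. Il1r2, a decoy receptor, had 15.3 ± 2.72 TPM with anti-CTLA-4 and 15.7 ± 2.44 TPM with the bacterium alone (SD, n = 4 and n = 5). It held 3886 reads with anti-CTLA-4 and 4930 with the bacterium alone, against 1161 and 461 of Csf3r. Which cells of the skin gave the reads of Il1r2, of Csf3r or of the other receptor genes was not tested.

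Of 12 further granule and precursor genes, 4 were tested, and Chil3 and Lcn2 were called higher, against 7.16% of all genes tested, while none was called lower. Chil3 reached 1 TPM in the anti-CTLA-4 libraries alone, so the filter favoured it. Summed over the 12, the libraries held 45.4 to 83.4 TPM with anti-CTLA-4 and 13.2 to 38.4 TPM with the bacterium alone, without overlap. Over all 11 with any read, the fit without a level filter called Chil3 alone, with a median log2 fold change of 0.17 against -0.0080 over all genes. Chil3, a chitinase-like protein that macrophages make as well, had 1.21, 1.98, 2.11 and 1.597 TPM with anti-CTLA-4, against 0.0330, 0.609, 0.440, 0.102 and 0.564 TPM with the bacterium alone (limma adjusted p = 0.00621). Lcn2, an iron-sequestering lipocalin that keratinocytes also make, had 38.4, 36.6, 65.2 and 73.4 TPM with anti-CTLA-4, against 11.8, 16.8, 29.4, 8.10 and 31.6 TPM with the bacterium alone. Its limma adjusted p was 0.0400, and the call ended in 7 of the 9 fits without 1 library, all but those without replicate 3 or 5 of the bacterium alone (limma adjusted p of up to 0.102). The tested genes Pglyrp1 and Ctsg were not called (log2 fold changes of 0.45 and -0.20). Precursor genes chosen after their values were seen were at or near 0. Elane, neutrophil elastase, had 1 read over the anti-CTLA-4 libraries and 0 over the others, Prtn3, proteinase 3, had 5 reads with anti-CTLA-4 and 2 with the bacterium alone, and Ms4a3 had none in any library.

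**Figure D3:**
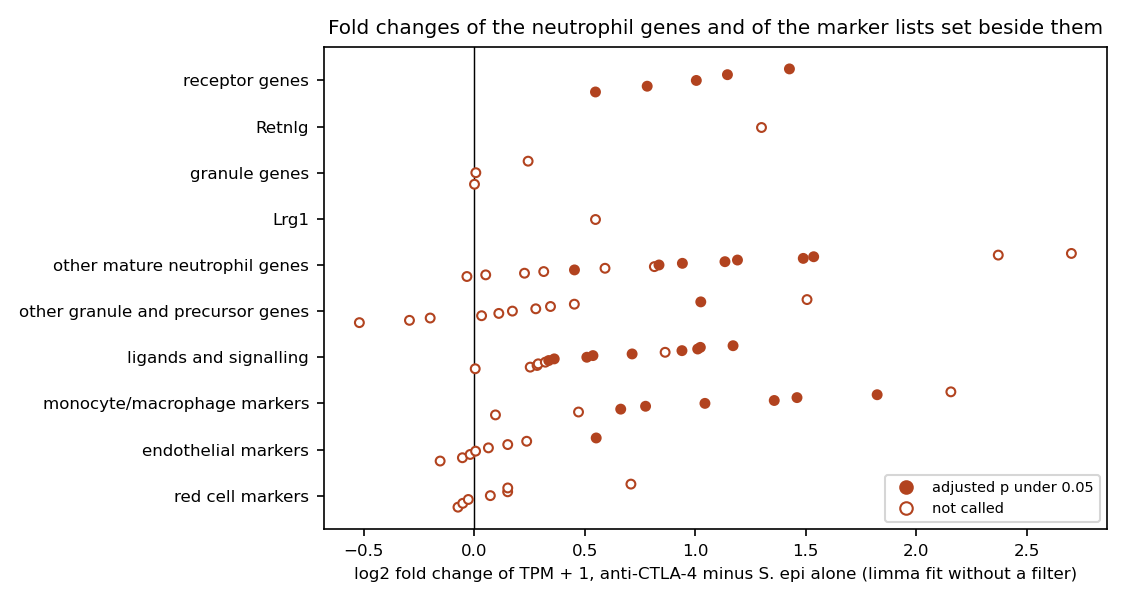
Log2 fold change of TPM + 1, anti-CTLA-4 minus the bacterium alone, from the limma fit without a level filter (horizontal axis), one point per gene, for the 10 genes and the lists set beside them. Filled points passed an adjusted p of 0.05, which all 5 receptor genes and none of the 3 granule genes did.

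Among genes for ligands and signalling partners of these receptors, most of those tested rose. Of 15 genes for ligands, kinases, G protein subunits and adaptors that the receptors use, 14 were tested, 10 rose, none fell and 4 were not called (median log2 fold change 0.52), against 7.16% of all genes called higher. Without the level filter 9 of the 15 rose, against 4.48% of all genes. Gnai2, the inhibitory G protein subunit that formyl peptide receptors couple to, had 64.3 ± 2.57 TPM with anti-CTLA-4 and 44.1 ± 3.29 TPM with the bacterium alone (limma adjusted p = 0.00245). Pik3cg, the phosphoinositide kinase downstream of G protein receptors, rose by a log2 fold change of 0.51. The Src family kinase gene Lyn and the kinase gene Syk rose by 1.01 and 0.94. Among genes named after their values were seen, Tyrobp, the adaptor through which TREM receptors signal, rose, with 49.1 ± 7.37 TPM in anti-CTLA-4 skin and 21.7 ± 5.94 TPM with the bacterium alone (SD, n = 4 and n = 5, limma adjusted p = 0.00600). Stat3 and Socs3, also on the list, were not called (limma adjusted p of 0.203 and 0.0598). Csf3, the ligand of Csf3r, had 9 reads with anti-CTLA-4 and 6 with the bacterium alone. It was not called in the limma fit without a level filter (adjusted p = 0.424). Whether the receptors drove any of these values was not tested. Anxa1, whose product is a ligand of Fpr2, had 122 ± 8.07 TPM with anti-CTLA-4 and 121 ± 4.06 TPM with the bacterium alone (SD, n = 4 and n = 5).

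Markers of monocytes and macrophages, which can also transcribe Csf3r, Fpr1, Fpr2, Trem1 and Trem3, moved with the receptor genes. Of 9 such markers 7 rose and 2 were not called, against 7.16% of all genes called higher, and 6 rose without the level filter, against 4.48%. Their summed level was 760 to 879 TPM with anti-CTLA-4 and 550 to 614 TPM with the bacterium alone. Itgam, Mrc1, Ccr2 and Fcgr1 had the smallest p, with log2 fold changes of 1.36, 1.04, 1.46 and 1.82. Neutrophils transcribe Itgam as well, so its rise does not tell the 2 kinds of cell apart. None of the 9 was at 0, and their part in the rise of the receptor genes was not tested. Endothelial markers, which bear on Lrg1, summed to 56.4 to 63.3 TPM with anti-CTLA-4 and 48.7 to 53.2 TPM with the bacterium alone. Of these 8 genes Plvap rose (log2 fold change 0.55, limma adjusted p = 0.00435) and 7 were not called, among them Cdh5, Pecam1 and Vwf at 0.24, 0.15 and -0.15, and their part in the Lrg1 values was not tested. Red cell markers, a sign of blood in the sample, summed to 14.7 to 20.7 TPM with anti-CTLA-4 and 13.5 to 17.8 TPM with the bacterium alone. Alas2 gave 1396 of their 1461 reads with anti-CTLA-4 and 1815 of 1879 with the bacterium alone, so the sums say little about globins. The globin genes Hbb-bs and Hbb-bt had 21 and 34 reads with anti-CTLA-4, against 23 and 24 with the bacterium alone. Of 7 red cell genes 3 were tested and none was called (Hbb-bt, Alas2 and Hbb-bs, log2 fold changes of 0.71, -0.074 and 0.072). The red cell membrane gene Slc4a1 had 3 reads with anti-CTLA-4 and 9 with the bacterium alone.

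**Figure D4:**
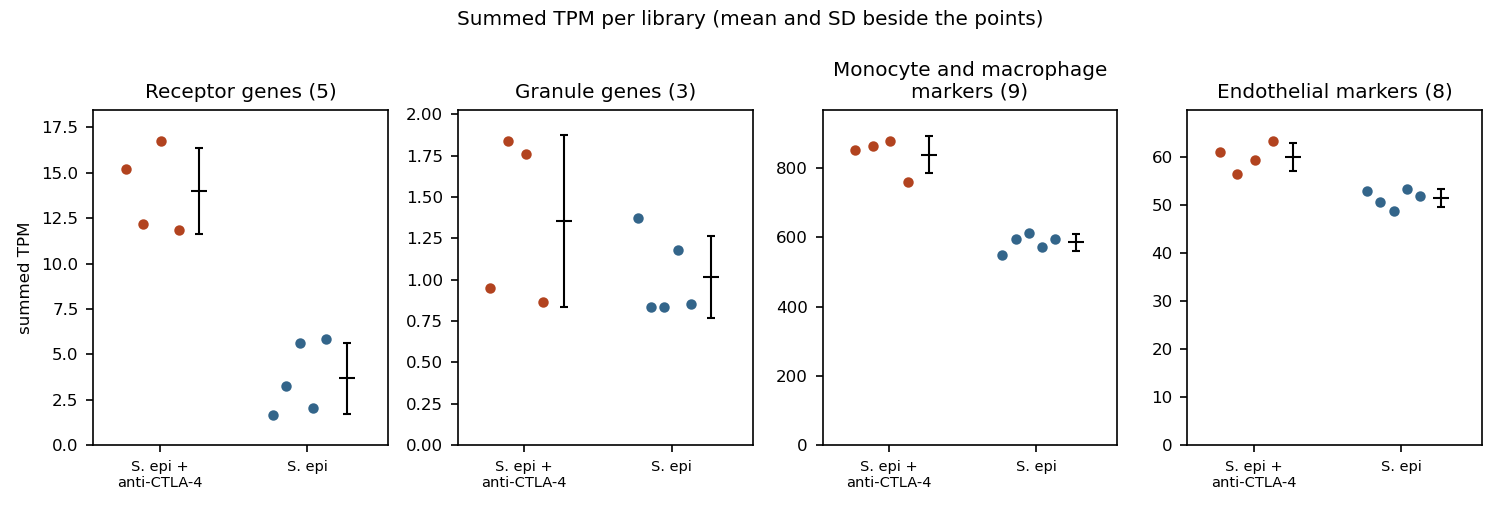
Summed TPM per library (vertical axes from 0, one scale per panel) of the 5 receptor genes, the 3 granule genes, 9 monocyte and macrophage markers and 8 endothelial markers, with anti-CTLA-4 (red) left of the bacterium alone (blue) and the mean and SD beside the points. The receptor genes and both marker lists separate the groups, and Ngp, Ltf and Mpo, between 0.834 and 1.84 TPM, do not.

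Across the 9 libraries, the named genes whose log2(TPM + 1) followed Csf3r most closely were Mefv, which encodes the inflammasome sensor pyrin (Pearson r = 0.995), the schlafen gene Slfn2 (0.993), the lysosomal transporter gene Slc15a3 (0.991), the cytokine gene Tgfb1 (0.988) and Uba7, which activates the ubiquitin-like protein ISG15 (0.986). These correlations include the difference between the groups. With the group means removed they were 0.984, 0.977, 0.969, 0.9496 and 0.942. For Lrg1, close correlates were the muscle gene Sln (0.941), Chtf18 (0.931) and Dtl (0.929), which act in DNA replication, and the RNA helicase gene Ddx1 (0.927). All are among the highest of many correlations over 9 libraries that share a scaling, and are given as a description.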

How the data were processed

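RNA sequencing of whole ear skin gave 9 libraries in 2 groups. Per the labels' protocols, bacteria were grown for 18 h at 37 °C, and libraries were made from 500 ng of RNA and sequenced with 75 cycles. The submitters' processing notes name the tools STAR, HOMER and DESeq2 and the genome mm10, with neither roles, versions nor annotation. The authors deposited TPM per gene with 3 decimals. The table's length is end minus start for 99.2% of genes, and TPM times that length over a constant per library gave the reads described above.

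Groups and replicate numbers came from the titles. Genes that reached 1 TPM in 4 or more libraries were tested with limma 3.58.1 in R 4.3.3 on log2(TPM + 1), with variances following the mean, no covariate, two-sided, Benjamini-Hochberg adjusted over all genes tested, threshold 0.05. The pseudocount of 1 makes fold changes of low genes too small. The script was tested on simulated data. Exact permutation tests used scipy 1.17.1. Counting intervals are exact binomial, at 95%.

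The 10 genes and all lists were chosen with earlier results of these data known. Named are the 10 genes, up to 4 tested genes with the smallest p of each list, and the 5 closest correlates of Csf3r and Lrg1, except for some genes that are not reported here. Alternatives were other pseudocounts, filters, scalings, variance models, the replicate block and leaving out each library. A limma-voom fit on recovered reads was added after the data were seen.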

Additional observations from a re-analysis of the deposited data

Results flagged for a closer look

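In the bacterium alone, replicate 3 held 0.414 TPM of Mpo, far above the next highest of that group at 0.133 TPM. It corresponds to 7 reads. Without it, the difference of mean log2(TPM + 1) was 0.077, with an exact two-sided permutation p of 0.343. Of 23 groups of values examined for a sample far from the rest, over the 10 genes and the sums of receptor and granule genes, this was the only 1 found, and chance gives about 1 in 20.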

How the results depend on the processing

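With a single setting changed, the calls of Csf3r and Fpr2 held in each fit that tested them (limma adjusted p of up to 0.0293 and 0.0368), and Ngp and Lrg1 were called in none. Of the 10 genes, 3 were called higher in the main limma fit, 5 without a level filter, 1 at a minimum of 5 TPM, where 2 were tested, 2 to 3 in the fits without 1 library, and 3 to 5 in those without 1 library and without a filter, which were added after the data were seen. None was called lower in any fit. In 19 alternatives Retnlg lost its call 10 times (limma adjusted p of 0.0508 to 0.114). Without 1 library, the differences of the receptor genes in mean log2(TPM + 1) lay between 0.48 for Trem3 and 1.57 for Csf3r. Groups that do not overlap always give the smallest permutation p possible (0.0286 or 0.0357 here), which says nothing about stability. The differences of Ltf and Mpo changed sign, with -0.0100 and -0.0237 at a pseudocount of 0.1, and ranged from -0.023 to 0.017 and from -0.037 to 0.081 without 1 library. The difference in summed TPM lay between 9.41 and 11.04 for receptor genes and between 0.177 and 0.501 for granule genes without 1 library.

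Over all genes, 1124 were called higher and 704 lower. Voom on recovered reads called 2002 higher and 1163 lower, the former 12.1% of the 16498 genes tested. It called 3 of the 10 genes higher (Csf3r, Fpr2 and Trem1, of 4 tested). Its filter was 10 or more reads in at least 4 libraries. Fpr2 and Trem1 met it through the anti-CTLA-4 libraries, which favoured a call. Fits that left out 1 library called 706 to 1094 higher and 337 to 703 lower. Quantile normalization called 1429 lower, a common median 1313 and a threshold of 0.1 1260. With the replicate number as a block, 592 were called higher and 88 lower, and Csf3r and Fpr2 kept their calls while Retnlg lost its own. Deviations of same-numbered libraries from their group means correlated at -0.0933 to 0.0180, which gave no sign of pairing. Whether the numbers stand for a common batch is not given by the labels and was not tested. Depth limits the granule genes, of which no library held more than 8 reads per gene.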

Other observations

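Libraries of the bacterium alone differed among themselves. Replicates 3 and 5 had the highest Csf3r, Fpr2 and Trem1 of that group, at 4.61 and 4.20, 0.616 and 1.04, and 0.310 and 0.547 TPM. The same 2 libraries held 903 and 1031 TPM of S100a8, against 63.6, 313 and 69.1 TPM in replicates 1, 2 and 4, and 29.4 and 31.6 TPM of Lcn2, against 11.8, 16.8 and 8.10 TPM. They had 0 reads of Fpr1 as did the other 3, and 2 and 3 reads of Ngp against 6, 4 and 5. Other genes differed: Trem3 and Retnlg were highest in replicate 2, at 0.157 and 2.15 TPM, replicate 5 held no read of Retnlg, and Mpo was highest in replicate 3, with 7 reads. This was seen in the values and was not tested.

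Cebpe, a transcription factor of granulocyte precursors, had 3 reads over the anti-CTLA-4 libraries and 12 over those of the bacterium alone (limma adjusted p = 0.218 in the fit without a level filter). Mmp8, the neutrophil collagenase, was higher in every anti-CTLA-4 library, at 0.794 ± 0.143 TPM with the antibody and 0.417 ± 0.156 TPM with the bacterium alone (SD, n = 4 and n = 5), and was not called in that fit (limma adjusted p = 0.0596). Cd177, a surface protein of neutrophils, had 60 reads with anti-CTLA-4 and 21 with the bacterium alone and was called there (limma adjusted p = 0.0171).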
